A study of Mus musculus with 2 samples.

Results

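The Igf2-H19 interval was taken as positions 142450000 to 142800000 of mouse chromosome 7 (mm10 build), a stretch of 350 kb that holds the imprinted genes H19, Igf2 and Ins2 and their neighbours Lsp1, Tnnt3, Mrpl23 and Nctc1. Its members were all CTCF peaks of the authors' optimal list with a summit inside those limits, which gave 26 of 49970 peaks. Members were taken by position, without a limit on signal, but the interval itself was chosen with earlier results of these data known. Summits of the authors' pooled list between H19 and Ins2 with a signal of 15 or more that the optimal list does not contain were listed as well, and there were 2. CTCF chromatin immunoprecipitation followed by sequencing had been carried out on limbs of B6NCrl mouse embryos of embryonic day 14.5. Per the labels, the limbs came from several dissections, embryos of both sexes were mixed, and the tissue was pulverised. The series has 1 group of 2 libraries, replicate 1 and replicate 2, so no test between groups could be made. The labels number them as biological replicates 1 and 2, yet both carry the same biosample label. The spread between them may therefore be technical, and the labels do not settle this. GENCODE places H19 at chr7:142575529-142578143 and Igf2 at chr7:142650766-142666816, both on the reverse strand. The lists do not separate the parental alleles, hold no expression values against which limb markers could be checked, and give no read counts, so depth is unknown.

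CTCF is a zinc finger protein that binds a long DNA motif, blocks contact between enhancers and promoters when it sits between them, and stops cohesin at the ends of chromatin loops. H19 and Igf2 share enhancers and are imprinted in opposite ways: H19, a long noncoding RNA, is transcribed from the maternal chromosome, and Igf2, a fetal growth factor, from the paternal one. Textbook accounts place the switch in a control region just upstream of H19, where CTCF binds the unmethylated maternal copy and keeps the enhancers beyond H19 from reaching Igf2, while methylation of CpG dinucleotides in the CTCF sites prevents binding on the paternal copy.

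The RefSeq annotation of the GRCm38.p6 reference, of which mm10 is the browser name, gives 4 CTCF sites in the control region, named m4, m3, m2 and m1 in order of distance from H19. They are shown because the results at H19 turn on them. Each line gives the whole annotated site on the reverse strand, 5′ to 3′, with the best 20-base match to the CTCF motif in capitals. The motif was a scoring matrix refined on strong peaks of other chromosomes, and a peak was said to have it when a match within 50 bp of the summit scored at least 5.28, the level that 5% of windows 1 kb away reached. The sites lie at chr7:142580301-142580347 (m4), chr7:142580756-142580803 (m3), chr7:142581782-142581826 (m2) and chr7:142582026-142582073 (m1).
m4: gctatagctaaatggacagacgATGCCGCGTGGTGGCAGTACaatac
m3: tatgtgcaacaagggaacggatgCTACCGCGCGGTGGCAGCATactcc
m2: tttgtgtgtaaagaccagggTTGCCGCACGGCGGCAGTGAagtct
m1: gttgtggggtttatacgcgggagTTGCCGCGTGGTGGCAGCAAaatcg
The 4 motifs are alike, and all lie on the reverse strand, the strand from which H19, Igf2 and Ins2 are transcribed. The closest pair, m1 and m4, share 17 of 20 bases, and the most distant pair, m2 and m3, share 13. The letters CCGCGNGGNGGCAG, where N is any base, occur in m1, m3 and m4, and the looser letters CCGCNNGGNGGCAG in all 4.

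CTCF peaks were found at m4, m3 and m2, in both libraries, and the optimal list has no peak at m1. In what follows signal is the authors' own value per peak, on the scale of its list, and the optimal list carries the pooled signal. At m3 the pooled signal was 132.8, with 73.7 in replicate 1 and 57.8 in replicate 2 (65.7 ± 11.2, SD, n = 2). At m4 it was 122.4, with 69.5 in replicate 1 and 51.1 in replicate 2 (60.3 ± 13.0, SD, n = 2). At m2 it was 78.3, with 39.8 in replicate 1 and 39.5 in replicate 2 (39.6 ± 0.230, SD, n = 2). Both libraries gave the order m3, m4, m2. Within a library, m3 was higher than m4 by 4.20 in replicate 1 and by 6.76 in replicate 2, and m4 was higher than m2 by 29.7 in replicate 1 and by 11.6 in replicate 2. The SD of 13.0 at m4 is larger than the steps between m3 and m4, but it includes the offset between the libraries, as replicate 1 was the higher one at both sites. With 2 libraries, neither step could be tested.

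Site m1 stood apart from m2, m3 and m4 in the lists. The nearest pooled summit, 142582021, had a signal of 19.5 and rank 50711 of the 300000 pooled peaks. Replicate 1 listed a signal of 19.1 there, at rank 33054, and replicate 2 listed 4.39, at rank 131994. After each library was scaled by its median over the optimal peaks, the log2 ratio of replicate 1 over replicate 2 was 2.05 at m1. At m4 it was 0.37, at m3 0.27 and at m2 -0.06. Of 17283 pooled summits with a signal between 15 and 25 that were listed in both libraries, 177 (1.02%) had a ratio at least as far from 0. Summits listed in 1 library alone have no ratio and are not in this share. The 17283 include summits of the optimal list, which was derived from both libraries, whereas m1 was listed because that list lacks it. The share among summits outside the optimal list was not counted. The ratio at m1 rests on the low replicate 2 value of 4.39. The summit at m1 lies 217 bp from that at m2. The conservative list has no peak at m1 either. Among the strongest 49970 peaks of each library, as many as the optimal list holds, m1 was in replicate 1 and not in replicate 2.

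**Figure D1:**
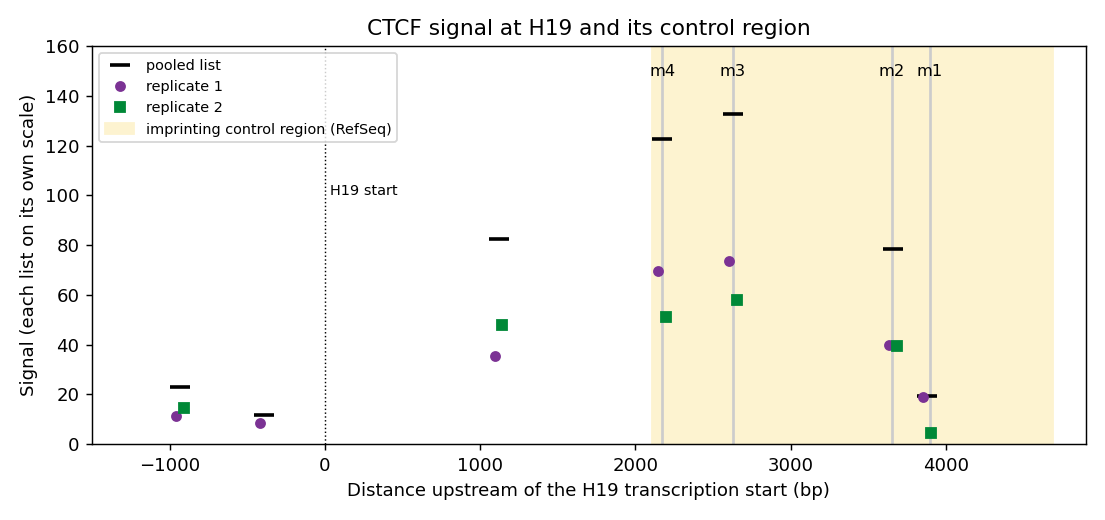
Signal of the summits around the H19 start, plotted against distance upstream of that start in bp, with the pooled list as bars, replicate 1 as circles and replicate 2 as squares, each on the scale of its own list. Shading marks the control region and grey lines its annotated CTCF sites. The 2 libraries lie close together at m2 (39.8 and 39.5) and far apart at m1 (19.1 and 4.39).

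The control region as RefSeq gives it (chr7:142580248-142582833, 2586 bp) held 3 optimal peaks and 5 pooled summits. The 3 peaks were above the median of the optimal peaks in strength: m3 was stronger than 73.1% of the optimal peaks, m4 than 70.9% and m2 than 58.7%. The optimal peaks most like them in signal within the interval, by distance from their median of 122.4, were a peak between Igf2 and Ins2 (118.6), one beyond Ins2 (108.9) and one in Lsp1 (136.4).

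The letters above were read from the control region sites, so their presence there was given. Most interval motifs have 20 letters that no other optimal motif has. Shorter patterns with free bases were not counted for the other interval peaks, so whether rarity is particular to these sites was not tested. Searched on both strands around the summit, CCGCGNGGNGGCAG occurred in 2 of the 26 interval peaks, m3 and m4, against 0.0280% of all optimal peaks (14 of 49959) and 0.00200% of windows 1 kb away from the summits. The looser letters were found in 3 interval peaks, m2, m3 and m4, against 0.248% of all optimal peaks (124). The matrix scores of the sites were 11.1 for m3, 10.5 for m1, 8.16 for m2 and 7.85 for m4. None reached 12.5, the score that 1% of flanking windows reached, and all were above 5.28.

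CpG dinucleotides were counted in the motifs of all peaks, since they are the bases at which methylation is known to act at this control region. The motifs of m2 and m3 hold 3 CpGs each and those of m4 and m1 hold 2 each. Among the interval peaks, 9 of 24 motifs (37.5%) held at least 1 CpG, against 42.2% of all optimal motifs, a share near the background. At least 2 CpGs were found in 5 of 24 interval motifs, against 11.5% of all. At least 3 were found in 3 of 24, against 3.33%, and the 3 were m2, m3 and the motif at the Mrpl23 promoter. No interval motif held 4 or more, against 0.901% of all. Within 201 bp around the summit, the m4 peak held 12 CpGs, m2 held 9 and m3 held 6, beside a median of 2 over the interval and 3 over all optimal peaks. The Mrpl23 promoter peak, with 20, and a peak in a Nctc1 intron (142550108), with 7, held more than m3. These are counts in the reference sequence. Methylation was not measured.

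**Figure D2:**
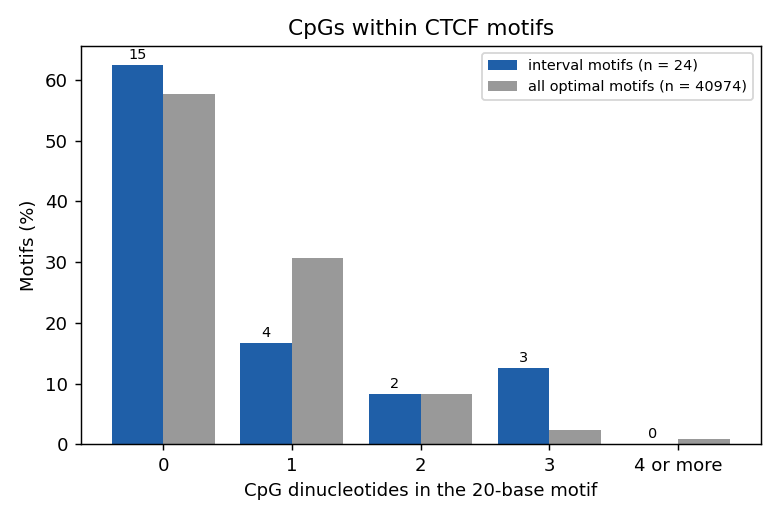
Share of CTCF motifs (%) by the number of CpG dinucleotides in the 20-base match, for the interval (24 motifs, counts above the bars) and for all 40974 optimal motifs. The interval has 3 motifs with 3 CpGs, 12.5% of its motifs against 2.43% of all. None of these 3 reached the stricter matrix score of 12.5.

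Around H19 itself the peaks were weaker or lay outside the control region. A peak 1118 bp upstream of the H19 start (summit 142579261) had a pooled signal of 82.5, with 35.4 in replicate 1 and 47.8 in replicate 2 (41.6 ± 8.73, SD, n = 2). It lies between H19 and the control region, 1051 bp from m4, has a reverse-strand motif with no CpG, and its matrix score of 15.6 was higher than that of any of the 4 annotated sites. Here replicate 2 was the higher library, the opposite of m3 and m4. The second peak lay in an exon of H19 (summit 142577208), 61 bp upstream of Mir675, the microRNA that is cut from H19. Its pooled signal was 23.1, with 11.2 in replicate 1 and 14.5 in replicate 2, and no motif was found within 50 bp of its summit. A further pooled summit in an H19 exon (142577747) had a signal of 11.7 and was listed in replicate 1 alone, at 8.41. That one has a forward-strand motif with a score of 15.8, also higher than those of the control region.

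Igf2 carried no CTCF peak of the optimal list. Its span held 9 pooled summits, with signals from 5.39 to 14.98. The strongest, 200 bp inside an annotated Igf2 start, had 14.98, just under the limit of 15, with 6.48 in replicate 1 and 8.56 in replicate 2, and no motif. The next had 14.1, 192 bp upstream of another Igf2 start, with 5.89 in replicate 1 and 5.45 in replicate 2, and a forward-strand motif scoring 8.19. Only 1.42% of the optimal peaks were weaker than the first of them and 1.06% than the second. The starts of H19 and Igf2 lie 88673 bp apart, and between H19 and Ins2 there were 8 optimal peaks among 43 pooled summits.

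Optimal peaks flanked Igf2 on both sides at a distance, stronger than 76.9% (H19 side) and 79.8% (Ins2 side) of all optimal peaks. On the H19 side the nearest was in an intron of Gm33148, an annotated long noncoding RNA, at summit 142610756. Its signal was 152.0, with 83.0 in replicate 1 and 69.6 in replicate 2, and its motif points forward. On the Ins2 side the nearest was 5527 bp upstream of the first Igf2 start, at summit 142672343, with a signal of 168.6, 80.5 in replicate 1 and 89.9 in replicate 2, and a reverse motif. The gap of 61587 bp between these peaks contains Igf2, and the motifs at its ends point toward each other, the arrangement known from the ends of many chromatin loops. Other neighbouring motifs of the interval face each other too, such as those at summits 142487471 and 142497094 and at 142737132 and 142737968. Looping was not measured. Shown are the 40 bases around the motif at each end of the gap that contains Igf2, 10 on either side of the match in capitals. They lie at chr7:142610740-142610779 on the forward strand and chr7:142672311-142672350 on the reverse strand.
Gm33148 intron: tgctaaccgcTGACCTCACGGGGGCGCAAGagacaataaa
Upstream of Igf2: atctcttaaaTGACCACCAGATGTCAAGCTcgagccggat

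Close to the second of these lay the other pooled summit with a signal of 15 or more that the optimal list lacks. Its position is 142671251, its pooled signal was 19.4 (rank 50867), below that of all 26 interval peaks as m1 was, and the libraries gave 9.30 in replicate 1 and 10.1 in replicate 2 (9.72 ± 0.595, SD, n = 2). Unlike m1, it had like values in both libraries, with a log2 ratio of -0.20, and the conservative list contains it. Its reverse-strand motif scored 12.5. Over the whole pooled list, 20.5% of summits with a signal of 15 or more (12676 of 61930) were not in the optimal list, and 35.9% of those were in the conservative list. The site that the conservative list has is shown for comparison with m1 above, at chr7:142671236-142671275 on the reverse strand, motif in capitals.
Summit 142671251: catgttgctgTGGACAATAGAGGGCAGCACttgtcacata

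Between Igf2 and Ins2, an insulin gene that is active mainly in the pancreas, a further peak (summit 142675856) lay 3870 bp downstream of the RefSeq start of Ins2. Its signal was 118.6, with 69.1 in replicate 1 and 49.0 in replicate 2, and its reverse-strand motif had a score of 18.1. No peak lay within 1 kb of an annotated start of either Igf2 or Ins2. In the whole interval 3 of 26 peaks lay within 1 kb of a transcription start, against 21.0% of all optimal peaks: the peak beside Mir675 in H19, one 862 bp upstream of Tnnt3 and one at Mrpl23. By annotation, 9 of the 26 summits were intergenic, against 41.1% of all optimal summits. Introns held 12, against 46.3%, and exons or untranslated regions 5, against 12.6%.

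**Figure D3:**
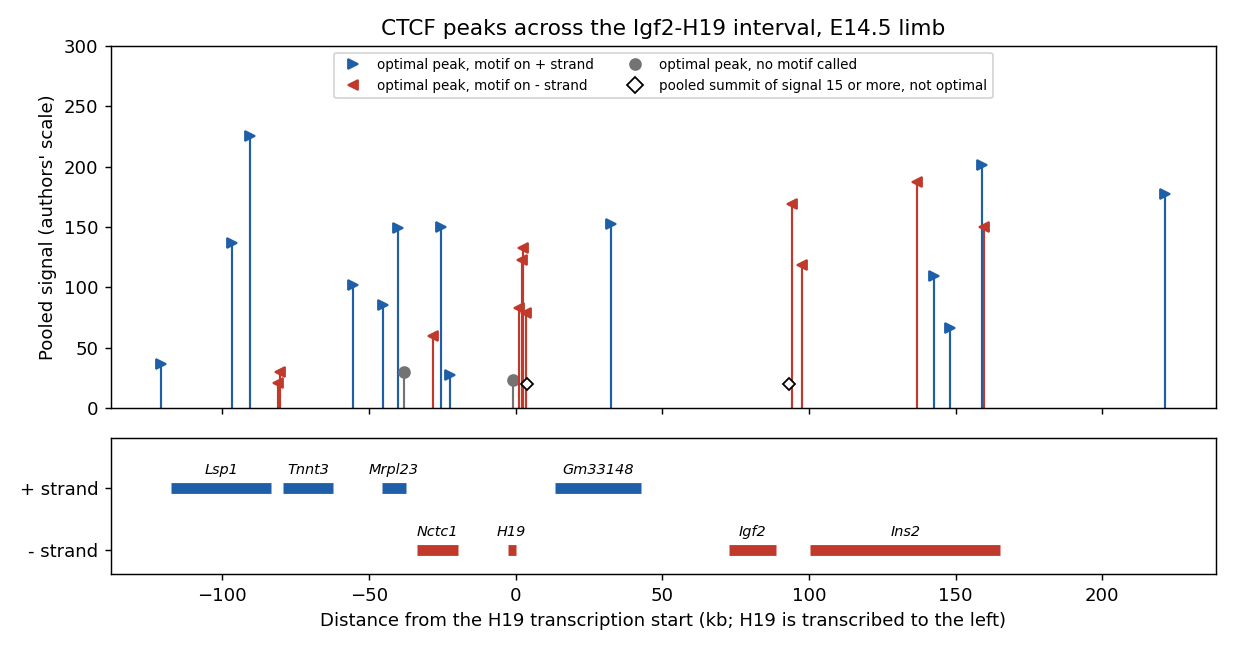
Pooled signal of the 26 interval peaks against distance from the H19 start in kb, with gene spans on the forward and reverse strand below. Triangles point in the direction of the motif, circles have no motif, and diamonds are the 2 pooled summits missing from the optimal list. Igf2 has no optimal peak, and a forward and a reverse motif face each other across it, as other neighbouring motifs of the interval also do.

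The enhancers that H19 and Igf2 share lie beyond H19, and 3 peaks fell among them. RefSeq gives an enhancer region at chr7:142547916-142573912, which overlaps Nctc1, a noncoding RNA gene, and held 3 optimal peaks among 15 pooled summits. The strongest (summit 142552676, Nctc1 intron) had 149.7, with 82.1 in replicate 1 and 65.9 in replicate 2. It lies in mm50, a VISTA element recorded by RefSeq as active in the limb of 14 of 14 transgenic embryos. The second (142550108) had 59.2, with 30.8 in replicate 1 and 26.8 in replicate 2. The third (142555920, Nctc1 exon) had 27.5, with 10.7 in replicate 1 and 17.1 in replicate 2, and a log2 ratio of -0.75, the lowest of the 26 peaks. A second VISTA element nearer to H19, mm47, active in the limb of 9 of 12 embryos, held no optimal peak and 5 pooled summits of at most 8.97. Of the 2 limb-positive elements, 1 carried an optimal CTCF peak and the other did not. The RefSeq records of these elements give no embryonic stage for the activity, which may differ from that of the limbs used here.

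Farther from H19, 9 peaks lay along Lsp1, Tnnt3 and Mrpl23, and they included both the strongest and the weakest of the interval. The strongest (summit 142487471) lay in an exon of Lsp1, which codes for an actin-binding protein of leukocytes. It had 225.5, with 125.3 in replicate 1 and 99.3 in replicate 2, and was stronger than 88.4% of the optimal peaks. An intron of Lsp1 held a second (142481371) with 136.4, 79.8 in replicate 1 and 55.5 in replicate 2, and a weaker one (142457403, 36.2) lay 3406 bp upstream of the gene. The peak 862 bp upstream of Tnnt3, which codes for fast skeletal muscle troponin T, had 29.6, with 16.3 in replicate 1 and 11.97 in replicate 2. The weakest peak of all (142497094) lay 880 bp farther upstream, with 20.6, 10.1 in replicate 1 and 9.53 in replicate 2. Between Tnnt3 and Mrpl23 a peak (142522574) had 101.6, with 59.8 in replicate 1 and 46.6 in replicate 2.

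At Mrpl23, which codes for a protein of the mitochondrial ribosome, 3 peaks lay within the gene. The one at its promoter (142533112) had 85.7, with 43.5 in replicate 1 and 40.9 in replicate 2. Its motif is near the score threshold, at 5.46, and its 201 bp held 20 CpGs, the most of any interval peak. An intronic peak (142538105) was stronger, at 149.1, with 78.2 in replicate 1 and 70.1 in replicate 2, and had the highest motif score of the interval, 18.5. A second intronic peak (142540208) had 29.4, with 12.3 in replicate 1 and 14.5 in replicate 2, and no motif. It and the peak in the H19 exon were the 2 of 26 without a called motif, so 24 of 26 had one, against 82.0% of all optimal peaks. At the stricter score of 12.5 the count was 13 of 26, against 58.5%. The motif lay within 10 bp of the summit in 17 of the 24 (70.8%), against 64.6% of all optimal motifs. Of the 24 motifs, 13 point forward and 11 in reverse, and 49.7% of all optimal motifs point forward. Both shares are near the background.

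Beyond Ins2 as RefSeq annotates it, 6 peaks formed the strongest stretch by median signal, at 163.7 (lowest 65.9, highest 201.0). The other stretches of 3 or more peaks had medians of 85.7 from Lsp1 to Mrpl23, 82.5 at H19 and its upstream flank and 59.2 at Nctc1. These 6 lie 35153 to 119892 bp upstream of the RefSeq start of Ins2. A long GENCODE model of Ins2 covers 5 of them in an untranslated region or introns. The strongest (142737132) had 201.0, with 99.4 in replicate 1 and 102.1 in replicate 2, and its neighbour 836 bp away (142737968) had 150.0, with 81.6 in replicate 1 and 69.8 in replicate 2. The first of the 6 (142714879) had 187.5, with 102.4 in replicate 1 and 88.0 in replicate 2, and the last (142799618) had 177.4, with 99.7 in replicate 1 and 79.0 in replicate 2. The 2 weakest were next to each other, at 108.9 (142720910; 58.7 in replicate 1, 50.4 in replicate 2) and 65.9 (142726208; 33.5 in replicate 1, 31.2 in replicate 2).

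The same 6 peaks had near copies of one another's sequence, a likeness noticed after the sequences were read. Of 276 pairs of motif-bearing interval peaks, 14 had at least 29 of 40 bases in common, and all 14 were among these 6 peaks, which form 15 pairs. The limit of 29 was set after the pairs were seen, and the next pair, with 28, was m3 and m4 of the control region. The median over all pairs was 16 bases. The peaks at 142720910 and 142799618 share 39 of 40 bases, and those at 142737132 and 142737968 share 37, on opposite strands. Shown are 5 of the 6, motif in capitals and 10 bases on either side, at chr7:142720915-142720954, chr7:142799619-142799658, chr7:142726194-142726233 and chr7:142737113-142737152 on the forward strand and chr7:142737943-142737982 on the reverse strand.
Summit 142720910: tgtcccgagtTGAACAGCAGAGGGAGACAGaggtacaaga
Summit 142799618: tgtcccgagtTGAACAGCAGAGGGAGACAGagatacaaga
Summit 142726208: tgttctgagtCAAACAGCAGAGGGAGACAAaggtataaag
Summit 142737132: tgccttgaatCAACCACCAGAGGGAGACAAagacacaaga
Summit 142737968: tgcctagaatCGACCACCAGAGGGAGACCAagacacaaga
The first 2 lines have the same 20 motif letters, yet their pooled signals were 108.9 and 177.4. In total, 4 optimal peaks had exactly these 20 letters, 2 of them on chromosome 7, and 3 had those of 142726208. For such copies, the handling of reads that match several positions was not given in the sources used here. None of the 26 summits lay in soft-masked repeat sequence, against 17.4% of all optimal summits.

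Over the whole interval, peaks were dense and mostly strong. There were 7.43 peaks per 100 kb, against 2.25 on the rest of chromosome 7 and 1.83 over the rest of the genome. Of 7777 consecutive windows of 350 kb, 143 (1.84%) held at least as many peaks. The median signal was 113.8 (quartiles 60.9 and 149.9), against 60.5 on the rest of chromosome 7 and 58.4 over the rest of the genome, and 20 of 26 peaks were above the median of all optimal peaks. The highest signals were moderate, however, since 225.5 in the interval compares with 597.2 in the whole list. The imprinted interval from Kcnq1 to Phlda2 on the same chromosome had 13 peaks, 3.28 per 100 kb, with a median of 137.2, and that from Dlk1 to Dio3 on chromosome 12 had 21 peaks, 2.54 per 100 kb, with a median of 29.8. No test was made of these differences. The optimal peaks nearest outside the limits had signals of 239.9 (142440713, 1095 bp upstream of Tnni2) and 172.3 (142850873).

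**Figure D4:**
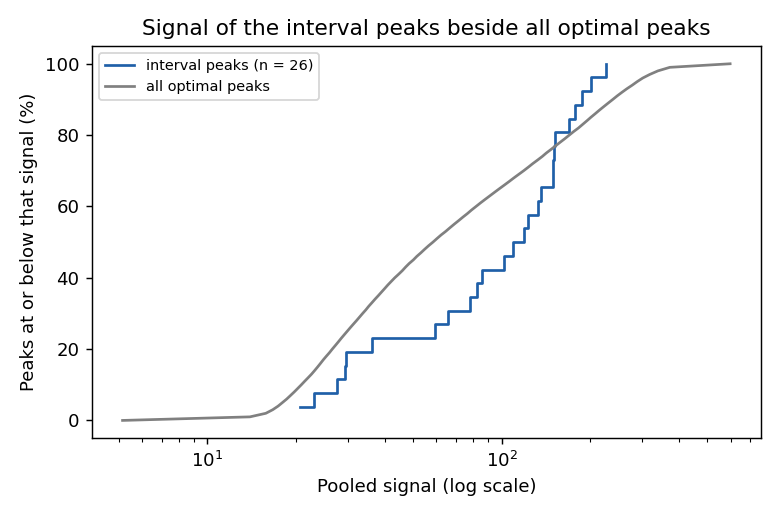
Cumulative share of peaks (%) by pooled signal on a log axis, for the 26 interval peaks and for all optimal peaks. The interval curve lies to the right of the other through its middle, at a median of 113.8 against 58.4, and ends at 225.5.

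All 26 peaks were found in both libraries, against 97.5% of all optimal peaks, and all 26 were in the conservative list, against 87.6%. The SD of the log2 ratio between replicates was 0.30 over the interval and 0.50 over all optimal peaks, and none of the 26 ratios was 1 or more from 0, against 6.16% of all. Weak peaks vary more: over all optimal peaks the SD was 0.83 in the weakest decile by signal and 0.14 in the strongest. The median ratio in the interval was 0.14, against 0.00 over all, and 19 of 26 peaks were above 0. Of the 49959 optimal peaks on main chromosomes, 24634 were above 0, and some of the others had no ratio. The 6 beyond Ins2 had the same median as the interval, 0.14, and the 5 at H19 and its flank had -0.06.

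**Figure D5:**
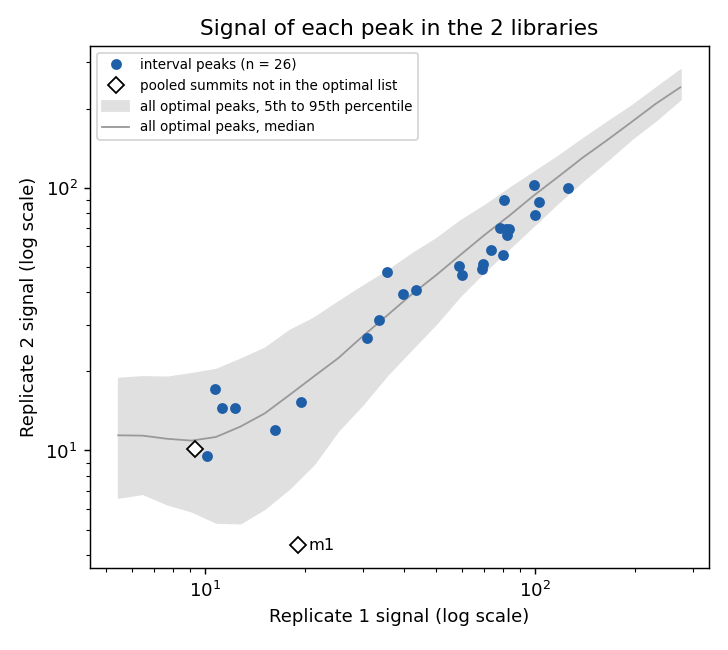
Signal in replicate 2 against replicate 1 on log axes, for the 26 interval peaks (circles) and the 2 pooled summits of signal 15 or more missing from the optimal list (diamonds). The line and the shading give the median and the 5th to 95th percentile of all optimal peaks. Site m1 is at 19.1 in replicate 1 and 4.39 in replicate 2. The shading was drawn from the optimal list, which was derived from both libraries and does not contain m1.

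Matches to the motif were more common in the interval than CTCF peaks. Sequences that scored at least as high as m4, the lowest of the annotated sites at 7.85, were found at 98 places. Of these, 23 lay within 50 bp of an optimal summit, 7 near a pooled summit only, and 68 near no pooled summit. The share near an optimal summit was 23.5%, against 10.5% of the 24458 such matches on the rest of chromosome 7, where optimal peaks are also sparser.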

How the data were processed

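CTCF was measured by chromatin immunoprecipitation sequencing in 2 libraries of 1 group, and 5 peak lists on mm10 were used. Each replicate list, per the authors' deposited notes, came from that library's alignments, a pooled list from both, and the conservative and optimal lists from those 3 lists, each with 1 further file. Aligner, peak caller, thresholds, control and the normalization of the signal were not given in the sources used here. A peak's signal, as deposited, can be read within its list. The authors' −log10 q-value reached a common cap of 4.88 in 21 of the 26 interval peaks and was not used to rank them. The IDR score (irreproducible discovery rate) that the authors deposited was 1000 in 23 of them and at least 767. Replicate and pooled lists hold 300000 peaks each, and the conservative list 48829.

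Replicate values are those of the nearest summit within 100 bp, and log2 ratios were scaled by each library's median over the optimal peaks (30.6 in replicate 1, 29.1 in replicate 2). The motif matrix (a sum of log2 odds over 20 positions) was refined in 10 rounds on the strongest 1000 optimal peaks of even-numbered autosomes other than 18. Sequence, GENCODE M21 genes and RefSeq elements came from the GRCm38.p6 reference. Its 21 main chromosomes were found by name, with no pooled peak past an end. Sequence steps used the 49959 optimal peaks on them. Every annotated gene, optimal peak and pooled summit of signal 15 or more outside the optimal list was considered for naming, together with the nearest peaks outside and the 3 most like the control region in signal. The interval, its members and the comparisons were chosen with earlier results of these data known. Alternatives covered the list, distances, motif threshold and training, promoter distance and the values or peaks of 1 library at a time. Matching and motif steps were tested on simulated data. Python 3.11.15, numpy 2.4.6, pandas 2.3.3 and matplotlib 3.10.9 were used. All counts and medians are descriptions without a test.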

Additional observations from a re-analysis of the deposited data

How the results depend on the processing

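No paired analysis was possible because the series has 1 group and no comparison between groups. The number of interval peaks (26) was 27 in the conservative list, which adds the summit at 142671251, and 20 among the strongest 50% of optimal peaks. The number with a motif was 13 in place of 24, and the number of CpG-bearing motifs 4 in place of 9, at the score that 1% of flanking windows reached. The median signal was 134.6 over the strongest 50%. With the values of 1 library it was 49.7 to 64.4, on that library's own scale. These values were read at the same 26 peaks, which come from a list derived from both libraries. Pooled summits outside the optimal list (2 at a signal of 15 or more) numbered 8 at a signal of 10 or more, 0 at 20 or more, 1 when a summit within 250 bp counted as present, and 1 against the conservative list. Peaks near a transcription start numbered 16 at 5 kb in place of 3. The window from 1.5 to 4.5 kb upstream of H19 had 3 peaks, 4 from 1 to 6 kb, 4 in the pooled list at a signal of 15 or more, and 3 to 4 with 1 library left out. Of the alternatives to these counts and medians, 10 moved the value by more than 1.5 times or beyond the replicate spread, and 28 did not. The share of interval peaks with a motif was above that of all optimal peaks at the main score (92.3% against 82.0%). At the score that 1% of flanking windows reached it was below (50% against 58.5%). The end of the long GENCODE model of Ins2 was tried after seeing the data and left the 2 summits. With 2 libraries and depth unknown, differences between sites could not be tested.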
